A study of Mus musculus with 6 samples.

Results

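The semaphorins, the plexins and the neuropilins were followed through a list of H3K9me3 peaks of Bergmann glia (BG). These cerebellar astrocytes send radial fibres to the pial surface, along which granule cells (GCs) migrate inward. H3K9me3, the trimethylation of histone H3 at lysine 9, is typical of repressed chromatin, and Setdb1 is one of the enzymes that deposit it. The list held 34673 peaks, each present in WT BG and absent in Setdb1 mutant BG. A peak belonged to the family where its annotation named a semaphorin of classes 3 to 7, a plexin or a neuropilin as the gene with the nearest transcription start site (TSS), which was so for 40 of the 34673 peaks. The family had 31 genes in the mouse RefSeq annotation, 20 ligands and 11 receptors. BG of C57BL/6 mice at postnatal day 10 had given 2 WT libraries, 2 libraries labelled MT and 2 control libraries, whose labels give input in the title and IgG as the antibody. For its RNA-seq, the study sorted mutant BG by GFP from Setdb1 flox/flox mice with mGFAP-Cre and Nes GFP. Control BG for it came from Nes GFP mice. The ChIP methods state only that BG were isolated by the procedure described earlier. In the study, mGFAP-Cre also recombines in the other cerebellar nerve cells apart from Purkinje cells, so cells around mutant BG could lack Setdb1 too. The genotype of the control libraries, and whether 2 libraries of a group came from separate animals, were not given in the sources used here.

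The list gave each peak a position in mm10, a score and an annotation, and no value per library. No spread between replicates, no depth and no test of WT against mutant BG could be had from it. The values below are therefore counts and shares of peaks or genes that the authors had already called as lost in mutant BG, and the 95% Wilson intervals beside shares cover counting error only. The list has no expression values, so the BG identity of the libraries could not be checked against marker genes. A peak named for a gene can lie far from it, and nothing here measured the activity of the genes.

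Semaphorins are guidance cues that steer growing axons and migrating neurons, by repulsion or by attraction. Class 3 semaphorins are secreted and mostly bind neuropilins, which signal through plexins of the A group, whereas classes 4 to 6 are membrane proteins that bind plexins directly and Sema7a is tethered by a lipid anchor. Plexins carry an intracellular GAP domain that acts on small GTPases and loosens adhesion and the cytoskeleton. In the cerebellum, Sema6a and its receptor Plxna2 are known for guiding the inward migration of GCs.

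The central 300 bases of 5 peaks are printed as examples, in GRCm38 (the assembly behind mm10) and on the plus strand. They do not represent the 40 peaks, of which 15 were centred on a repeat and only 7 lay within 10 kb of a TSS. They are the family peak with the highest score outside a repeat and the 4 non-repeat peaks nearest to a TSS of the genes they are named for, within introns or between genes. Capitals mark TTGGCA or its reverse complement TGCCAA, the core motif bound by NFI factors. It was chosen because the study places the NFI factor Nfix in a complex with Setdb1. All of these genes lie on the minus strand. The first window, chr6:116042811-116043110, covers 240 coding bases of exon 4 of Tmcc1 and holds no match. The second, chr1:36559725-36560024, lies upstream of a Sema4c TSS and holds none. Next, chr17:56136503-56136802, lies in intron 1 of Sema6b and holds 1. The last ones, chr6:115998334-115998633 and chr6:116000810-116001109, lie upstream of Plxnd1 and hold 1 and 2. Windows within LTR elements, which derive from retroviruses, are not printed.
Plxnd1, exon of Tmcc1: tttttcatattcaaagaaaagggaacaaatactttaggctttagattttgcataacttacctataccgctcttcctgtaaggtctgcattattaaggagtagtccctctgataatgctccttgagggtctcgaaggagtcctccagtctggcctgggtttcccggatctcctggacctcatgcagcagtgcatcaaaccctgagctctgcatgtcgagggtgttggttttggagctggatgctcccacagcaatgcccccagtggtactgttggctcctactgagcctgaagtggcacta
Sema4c, upstream of a TSS: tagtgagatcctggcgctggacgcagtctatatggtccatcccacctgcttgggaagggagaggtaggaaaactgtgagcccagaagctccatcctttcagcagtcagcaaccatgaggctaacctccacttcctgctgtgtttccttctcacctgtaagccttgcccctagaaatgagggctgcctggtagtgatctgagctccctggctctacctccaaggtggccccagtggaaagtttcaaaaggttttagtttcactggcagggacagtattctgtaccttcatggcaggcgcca
Sema6b, intron 1: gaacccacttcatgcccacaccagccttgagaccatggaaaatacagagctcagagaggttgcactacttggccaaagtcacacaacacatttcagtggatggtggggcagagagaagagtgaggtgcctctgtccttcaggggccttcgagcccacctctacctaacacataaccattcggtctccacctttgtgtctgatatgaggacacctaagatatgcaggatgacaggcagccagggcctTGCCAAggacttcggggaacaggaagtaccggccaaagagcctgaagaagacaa
Plxnd1, nearest upstream peak: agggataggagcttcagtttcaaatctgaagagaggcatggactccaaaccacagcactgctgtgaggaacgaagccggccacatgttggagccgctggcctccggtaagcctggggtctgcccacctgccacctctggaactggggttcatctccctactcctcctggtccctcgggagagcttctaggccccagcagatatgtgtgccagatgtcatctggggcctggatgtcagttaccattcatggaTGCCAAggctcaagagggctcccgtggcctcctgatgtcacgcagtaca
Plxnd1, next upstream peak: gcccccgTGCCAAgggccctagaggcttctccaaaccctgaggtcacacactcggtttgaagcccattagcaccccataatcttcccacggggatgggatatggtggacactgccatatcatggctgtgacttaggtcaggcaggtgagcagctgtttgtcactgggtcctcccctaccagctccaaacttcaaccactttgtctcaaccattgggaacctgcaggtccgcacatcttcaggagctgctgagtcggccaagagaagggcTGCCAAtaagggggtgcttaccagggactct

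At least 1 peak was named for 17 of the 31 members (54.8%), beside 50.9% of 21000 protein-coding genes. Long genes collected more peaks, and among genes at least as long as the median member (40.5 kb) the share was 69.1%, so the family's share lay near the background and is no result about the family. The 17 members with a peak had a median length of 115.4 kb, and the 14 without one of 26.3 kb. Of the 13 members in the longest of 10 equal groups of genes by length, 9 had a peak, beside 80.3% of all genes in that group. Within 10 kb of a TSS, 6 members had a peak (19.4%), beside 22% of the protein-coding genes. The peaks were spread unevenly over the members. Sema6d and Plxnc1 had 6 each, Sema3d had 5, Sema4d had 4, Plxna4 and Plxnd1 had 3 each, Sema4b and Nrp2 had 2 each, and the other 9 had 1 each. Members with at least 3 peaks made up 19.4% of the family, beside 16.5% of the protein-coding genes.

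**Figure D1:**
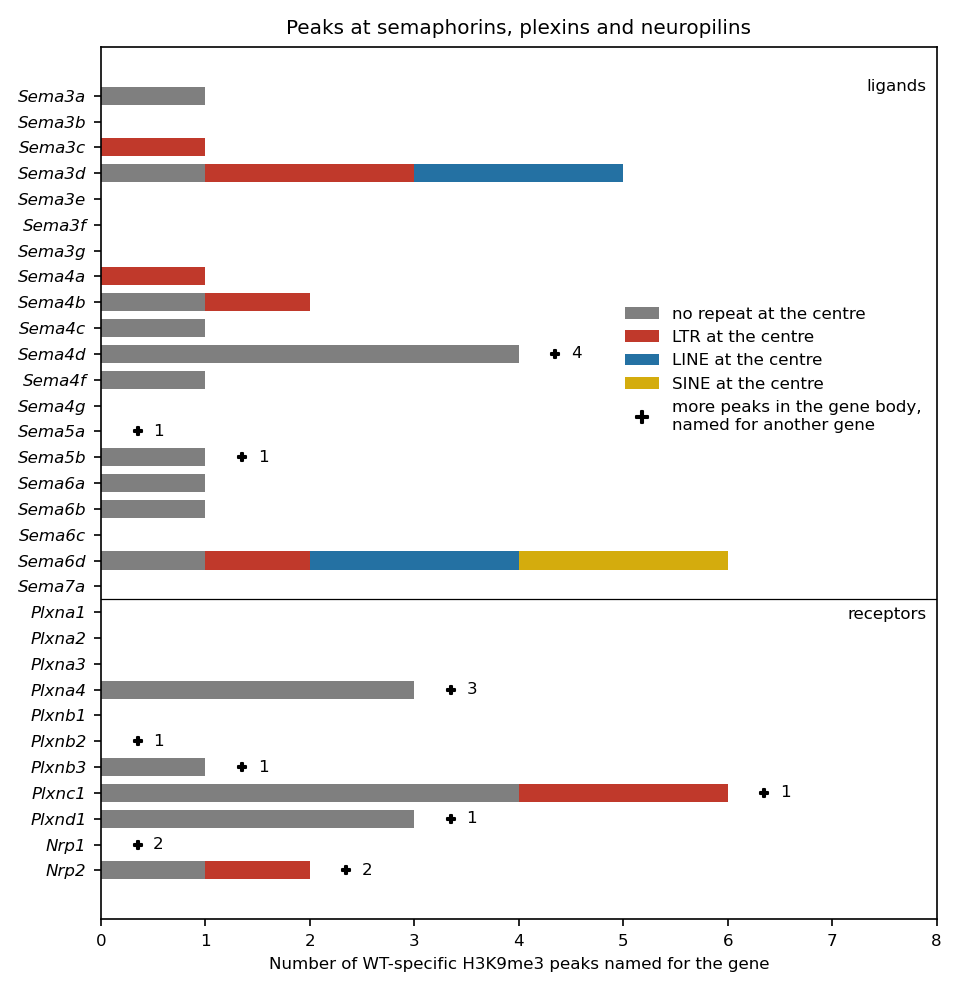
Number of WT-specific H3K9me3 peaks named for each of the 31 members, ordered by role, with bars split by the repeat class at the peak centre, and crosses for the peaks that lie inside the member's body but are named for another gene. Sema6d and Plxnc1 reach 6 named peaks, 14 members have none, and Sema4d has 4 further peaks in its body.

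Among the 20 ligands, 12 had a peak and 25 peaks were named for them, while 5 of the 11 receptors had 15 peaks. Beside this stood 50.9% of protein-coding genes and 69.1% of those at least 40.5 kb long. Median gene length ran from 23.3 kb in class 7 to 287.3 kb in class 5. The counts per class below are therefore no result about the classes. Ligand peaks were centred on a repeat in 12 of 25 cases (48%, 30.0 to 66.5%), and receptor peaks in 3 of 15 (20%, 7.05 to 45.2%). These intervals overlap, and the difference was not tested because peaks of 1 gene are not independent. The 4 L1 peaks, the 2 SINE peaks and the 4 ERVK peaks of the family were all at ligands. Over the list, these classes made up 16.3%, 8.05% and 13.0% of peaks. In the family they were named for Sema3c, Sema3d and Sema6d only, so they are no result about ligands as a group. The 3 repeat peaks at receptors were LTR elements of the ERVL-MaLR and ERVL families. Of the ligand peaks, 13 lay inside the gene they were named for, 8 upstream and 4 downstream. Of the receptor peaks, 4 lay inside, 11 upstream and none downstream. These positions depend on naming by the nearest TSS. With peaks under any name counted, ligand bodies held 19 (7.08 per Mb) and receptor bodies 15 (12.2 per Mb), beside 13.3 per Mb over all protein-coding genes. The median distance to the TSS was 55.9 kb for ligands (21.7 to 136.1 kb) and 23.68 kb for receptors (19.3 to 48.0 kb), with intervals that overlap.

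The secreted class 3 ligands had peaks at 3 of 7 genes, 7 peaks in all, of which 5 were on repeats, and none was within 10 kb of a TSS. Sema3c, an attractive as well as repulsive cue, had 1 peak, at chr5:17684433-17685060 in intron 11 of 17. It had the highest score of the family, 22.1, which 1.23% of the list reached, and was centred on RLTR10-int, the internal part of an ERVK retroviral element. The list held 114 peaks on RLTR10-int with a median score of 13.2, and 18.4% of them scored as high as the Sema3c peak. Sema3d, a ligand of endothelial and neural crest patterning, had 5 peaks, from 181.0 kb upstream of its TSS to 442.8 kb downstream. Its 2 intron 7 peaks, at chr5:12516985-12518030 and chr5:12518919-12519546, had scores of 19.9 and 12.5 and were both centred on IAPEz-int, the internal part of an IAP element of the ERVK family. The 888 bp between them were soft masked as repeat throughout, as was the weaker peak, while the stronger one was masked over 92.4% of its bases. The pair spans 2561 bp, and whether it lies in a single element was not tested. Over the whole list, 696 peaks were centred on IAPEz-int with a median score of 9.31, and 8.33% scored as high as the stronger one. The other Sema3d peaks had scores of 11.2 on the L1 element Lx3A, 6.42 on L1Md_F2, and 6.1 where the authors named no repeat. The last of these was soft masked over 53.5% of its bases, while the centre of the L1Md_F2 peak was not soft masked. Sema3a, the classic repellent of sensory axons, had 1 peak with a score of 9.31, at 501.9 kb from the TSS the authors used and 229.9 kb upstream of the RefSeq gene.

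The other 4 class 3 genes, Sema3b, Sema3e, Sema3f and Sema3g, had no peak. Sema3e, which signals through Plxnd1 without a neuropilin, lay farther from any peak than the other members, at 367.2 kb from its gene body, and 0.267% of protein-coding genes lay at least as far. Sema3d, Sema3a and Sema3e are neighbours on chromosome 5. From the start of Sema3a to the end of Sema3e, chr5:13124822-14256689, the list held 2 peaks in 1.13 Mb, both named for Speer3, which is 1.77 peaks per Mb, beside 16.2 per Mb over chromosome 5. From the start of Sema3d to the end of Sema3e, which adds the Sema3d peaks in and downstream of the gene and that of Sema3a, it held 7 in 1.87 Mb, or 3.74 per Mb. These stretches were set apart after their values were seen.

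The class 4 ligands had peaks at 5 of 6 genes, 9 peaks in all with 2 on repeats, and Sema4g was the only one without. Sema4d, a ligand of Plxnb1, had 4 peaks in introns 1 and 2 of its transcripts, with scores of 6.42, 8.34, 6.42 and 12.8, and the strongest lay at chr13:51771837-51772337 in intron 1. A further 4 peaks in its body were named for its neighbour Secisbp2, with scores of 8.02, 8.02, 6.42 and 5.78. Set beside the RefSeq annotation, the nearest TSS of all 4 was one of Sema4d. The authors placed the 4 named peaks 66.5, 55.9, 30.5 and 21.7 kb from a TSS, whereas the nearest Sema4d TSS in RefSeq lay 12.2, 1.63, 6.52 and 15.4 kb away, in the order of the scores above. With 8 peaks in 108.2 kb the Sema4d body held 74.0 peaks per Mb, a density that 6 of 2407 protein-coding genes of 100 kb or more reached (0.249%), while 182 of them (7.56%) held as many peaks. Sema4d was singled out for this count after its values were seen. None of its 8 peaks was centred on a repeat. Sema4b had 2 peaks upstream, with a score of 12.5 at 8.30 kb and of 6.42 on the LTR element ORR1B1 at 34.6 kb. Sema4a, known from immune cells, had 1 peak on ORR1B1 at 9.66 kb upstream, with a score of 8.66. Sema4c, a ligand of Plxnb2, had the peak nearest to a TSS in the family, at chr1:36559625-36560125. It lay 1.49 kb upstream of a TSS with a score of 6.42, inside the RefSeq gene, and its sequence is given above. Sema4f had 1 peak in intron 4 of 12, with a score of 6.74.

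Class 5 ligands carry thrombospondin repeats. Sema5b had 1 peak, in intron 1 of 21 with a score of 5.78, and no peak was named for Sema5a. The class 6 ligands had peaks at 3 of 4 genes, 8 peaks in all with 5 on repeats. Sema6d, a ligand of Plxna1, had 6 peaks over a gene of 577.8 kb and its flanks. Its peak with the highest score, 12.8 on the L1 element L1Md_T, lay 483.7 kb upstream at chr2:123605735-123606735, and another on L1Md_A lay 520.7 kb upstream, the greatest distance in the family, with a score of 8.34. The 4 others scored 5.46 to 7.06, and the nearest to a TSS lay 6.77 kb upstream of one within intron 1 of a longer transcript, on the SINE B4A. Sema6b had 1 peak at chr17:56136403-56136903, 2.80 kb upstream of a TSS with a score of 6.42, in intron 1 of a longer transcript. Sema6a, the GC migration cue, had 1 peak with a score of 6.1, 171.6 kb from its TSS and 48.0 kb beyond the end of the gene. Sema6c, and Sema7a of class 7, had none.

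**Figure D2:**
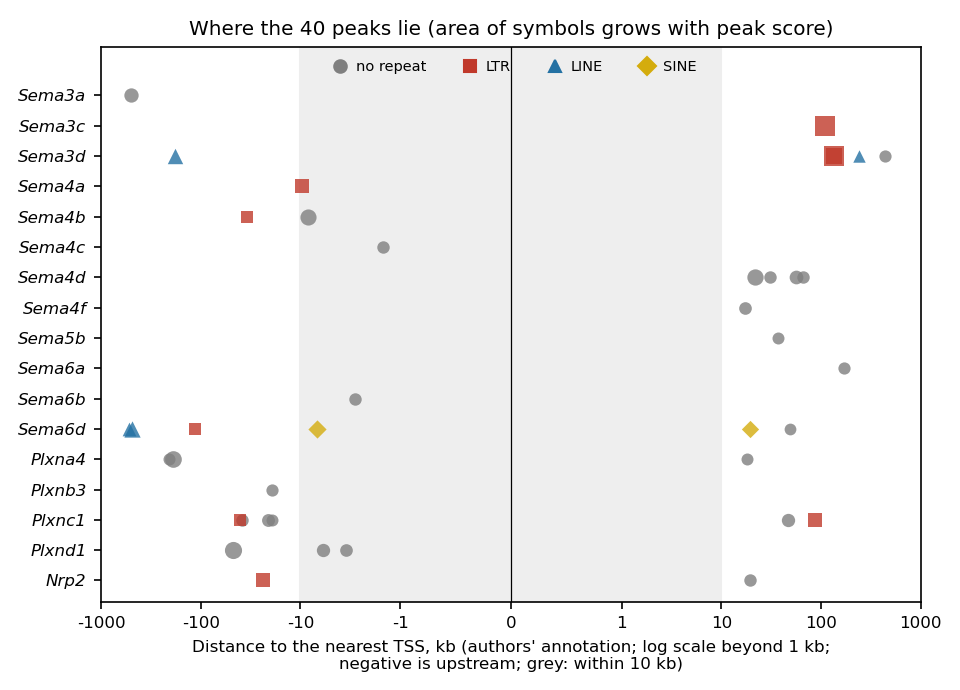
Signed distance in kb of the 40 peaks from the TSS of the gene they are named for, per member, negative upstream. Colours give the repeat class at the peak centre and the symbol area grows with the score. The 7 peaks within 10 kb of the TSS the authors used belong to Sema4a, Sema4b, Sema4c, Sema6b, Sema6d and Plxnd1.

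Among the receptors, 4 of 9 plexins had 13 peaks, and 1 of 2 neuropilins had 2. Plxnc1, the receptor of Sema7a, had 6 peaks. Inside the gene lay 2 of them, with scores of 7.38 in intron 9 on the LTR element MTC and 7.7 in intron 4. The other 4 lay 19.4, 21.1, 38.3 and 40.4 kb upstream as 2 pairs with gaps of 1.22 and 1.54 kb, and scored 5.78, 7.06, 6.42 and 7.06. The scores of Plxnc1 thus lay between 5.78 and 7.7, beside a median of 7.06 over the list. Plxnd1, the receptor of Sema3e, had 2 peaks at 3.48 and 5.96 kb upstream of its TSS, with scores of 6.74 and 7.7 and a gap of 1.98 kb. Its remaining peak, at chr6:116042711-116043211, had a score of 14.4, which 4.67% of the list reached. It lay in exon 4 of 6 of Tmcc1, 48.0 kb from the TSS of Plxnd1, and in RefSeq a TSS of Tmcc1 was nearer, at 14.1 kb. This was the only one of the 40 peaks whose nearest gene differed in RefSeq.

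Plxna4, a receptor for both class 3 and class 6 ligands, had 3 peaks, of which the one at chr6:32779030-32779666 scored 13.5, 191.2 kb upstream. The others scored 5.78 each, in its own intron 1 and in intron 8 of the neighbour Chchd3. No peak was named for Plxna1, Plxna2 or Plxna3. Plxnb3, a receptor of Sema5a, had 1 peak with a score of 6.1, and no peak was named for Plxnb1 or Plxnb2. Nrp2, which binds Sema3c and Sema3f, had a peak of 8.99 on the LTR element RMER10A at 23.68 kb upstream and one of 6.42 in intron 2 of 16. No peak was named for Nrp1, the receptor of Sema3a.

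Naming by the nearest TSS left out peaks that lay in members. In the bodies of 16 members lay 34 peaks, and 17 of these were named for another gene, among them Secisbp2, Mir1903 and Plxna4os1. In their bodies 16 of 31 members thus had a peak, beside 31.3% of all protein-coding genes and 63.1% of those at least as long as the median member. Of the members with no named peak, 3 had such peaks. Nrp1 had 2, in introns 9 and 11 with scores of 8.66 and 7.06, named for Mir1903. Sema5a had 1 with a score of 5.78 in intron 15 and Plxnb2 had 1 with a score of 5.46 in intron 9. Plxna4 had 3, with scores of 8.34 in exon 20, 7.38 in intron 3 and 6.42 in intron 1, of which 2 were named for Plxna4os1. Nrp2 had 2, and 1 each lay in Sema5b, Plxnb3, Plxnc1 and Plxnd1, the last in exon 19 of 36 with the highest score of the 17, 9.95. None of the 17 was centred on a repeat and their median score was 7.06. Per length, member bodies held 8.69 peaks per Mb, beside 13.3 over the bodies of all protein-coding genes. This pooled value mixes members from 0 to 82.9 per Mb. Sema4d alone held 8 of the 34 peaks, while the long Sema5a and Sema6d bodies held 2.21 and 3.46 per Mb. The difference was not tested.

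With both kinds of peak counted, 20 members had at least 1, and 11 had none. By the same rule 55.5% of protein-coding genes had at least 1, and 78% of those at least as long as the median member. Of these 11, Sema3b had a peak 1.38 kb from its body and Plxna1 one at 9.11 kb. Sema7a, Sema4g and Plxnb1 lay 14.02 to 16.95 kb from the nearest peak, and Sema3f, Sema3g and Sema6c 44.2 to 71.1 kb. Plxna3 lay at 101.7 kb and Plxna2, the receptor of Sema6a, at 151.6 kb, a distance that 2.82% of protein-coding genes reached.

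**Figure D3:**
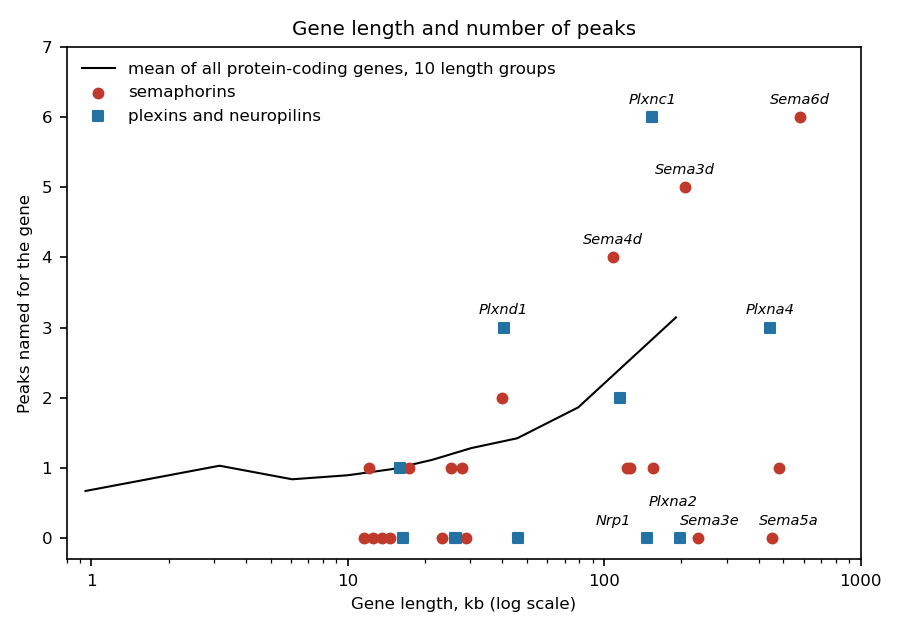
Gene length in kb on a log axis against the number of named peaks for each member, with the mean of 21000 protein-coding genes in 10 groups of length as a line. The line rises from 0.671 to 3.15 peaks per gene. Plxnc1, Sema4d and Plxnd1 lie above it, Sema6d and Sema3d above its last value, while Sema3e, Sema5a, Nrp1 and Plxna2 are long genes with no named peak.

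By annotation, 21 of the 40 peaks were intergenic (52.5%, 37.5 to 67.1%, beside 59.4% of the list) and 17 intronic (42.5%, 28.5 to 57.8%, beside 34.2%). The other 2 were in neither class, among them the Tmcc1 exon peak. No peak was in a promoter (from 1 kb before a TSS to 100 bp past it), and 0 of 40 allows a share of up to 7.5% (3 counts of 40) or 8.76% (Wilson), beside 0.805% of the list. Within 10 kb of a TSS lay 7 peaks (17.5%, 8.75 to 32.0%, beside 19.4%), and the median distance was 39.3 kb (21.1 to 87.4 kb, beside 37.4 kb). By RefSeq TSSs 9 peaks lay within 10 kb, with 2 of Sema4d added. In these respects the family did not stand out beyond counting error.

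In the authors' annotation, repeats lay at the centre of 15 of the 40 peaks (37.5%, 24.2 to 53.0%), beside 54.0% of the list, which is just above the interval. Among peaks with a score at or above the median of the list, the shares were 11 of 20 (55.0%, 34.2 to 74.2%) and 55.8%, so the family was then within counting error of the list. Without Sema6d the family share was 10 of 34 (29.4%, 16.8 to 46.2%). Peaks soft masked over at least 50% of their bases made up 25% of the family, beside 34.7% of the list. The result thus depended on the setting. LTR elements accounted for 9 (22.5%, beside 26.6%), L1 for 4 (10.0%, beside 16.3%) and SINEs for 2 (5.0%, beside 8.05%). Only IAPEz-int and ORR1B1 occurred more than once, with 2 peaks each, and the IAPEz-int pair lay side by side. ERV1 elements, at 2.99% of the list, occurred at none of the 40, with the same limits. Peak sequences were soft masked to a median of 17.8%, beside 29.8% over the list, and the median GC content was 49.6%, beside 49.1%.

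Peak scores ranged from 5.46 to 22.1 with a median of 6.90 (6.42 to 8.34), beside a median of 7.06 over the list, whose highest score was 784.3. The 15 repeat peaks had a median of 8.34 (6.42 to 12.5) and the 25 others of 6.42 (6.1 to 7.7), and these intervals overlap. Scores of at least 12, a limit chosen after the values were seen, were reached by 8 of the 40 peaks. Over the list 8.07% of peaks reached them, a smaller share than in the family, and the difference was not tested. Of the 8 peaks, 4 were on repeats and 4 outside them. On repeats they were the peak of Sema3c, the pair of Sema3d and one of Sema6d. Outside repeats they were one each of Plxnd1, Plxna4, Sema4d and Sema4b.

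**Figure D4:**
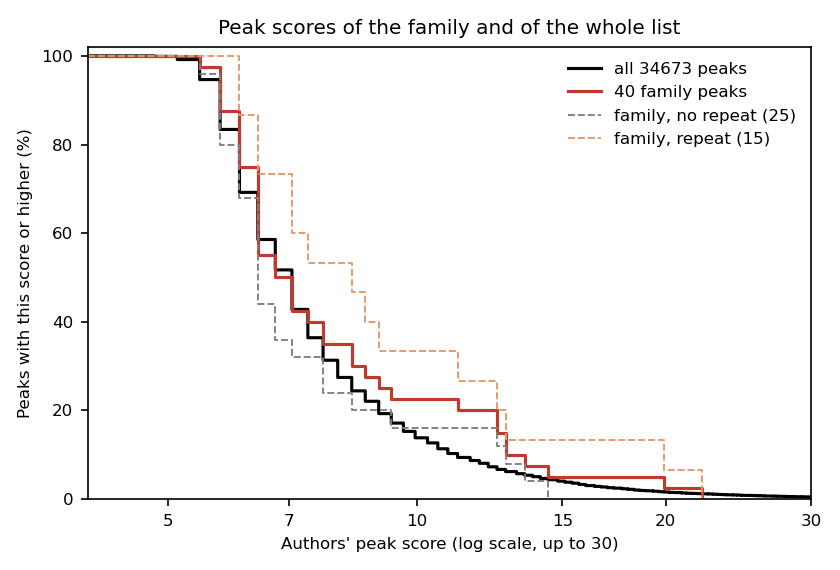
Share of peaks, in percent, with a given score or higher, against the score on a log axis up to 30, for all 34673 peaks, the 40 family peaks, and the family peaks on and off repeats. The family curve stays close to that of the list around the median and lies above it at a score of 12. Family peaks on repeats reach 22.1, while those off repeats end at 14.4.

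The NFI core motif TTGGCA, searched on both strands, was in 13 of the 40 peaks (32.5%, 20.1 to 48.0%), beside 29.1% of 34600 peaks of the list on the assembled chromosomes. Among peaks of 500 bp the shares were 8 of 28 (28.6%) and 26.4%. The strongest peaks included both kinds. The Sema3c peak held 3 matches and the weaker IAPEz-int peak of Sema3d held 2. The stronger IAPEz-int peak of Sema3d and the Tmcc1 exon peak named for Plxnd1 held none. The full NFI palindrome, TTGGC and GCCAA with 5 bases between them, was in none of the 40, beside 0.0376% of the list. A match describes the sequence and shows no binding. The study reports an Nfix motif, found de novo with HOMER, as enriched among genes raised in mutant BG that had lost H3K9me3. The comparison here was between peaks of the same list, with no genomic background, so it cannot address that enrichment.

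Other receptors, co-receptors and intracellular effectors of semaphorin signalling, a list of 35 genes, had peaks at 22 (62.9%). Beside this stood 50.9% of protein-coding genes and 69.1% of those at least 40.5 kb long. The median length of the 35 was 46.2 kb. Of 10 receptors or co-receptors, 5 had 15 peaks, and of 25 effectors 17 had 44. Fyn, a kinase that acts downstream of plexin A, had 5 peaks with scores of up to 13.2, the nearest at 20.1 kb. Dpysl4, a member of the collapsin response mediator family, also had 5, with scores of up to 7.38, the nearest at 18.9 kb. Within 10 kb of a TSS, 6 of the 35 had a peak, beside 22% of protein-coding genes.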

How the data were processed

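H3K9me3 ChIP-seq peaks of BG at postnatal day 10 were taken from the 1 deposited list. The authors aligned reads to mm10 with Bowtie2, assigned a read that matches several places to its 1 best location, called peaks over the local background with HOMER (versions 2.2.8 and 4.10.1 per the submitters' processing notes) and retained peaks of WT BG absent in mutant BG. Copies of young repeats can therefore receive reads of other copies. The unit of the deposited peak value is a score whose scale, like the pooling of libraries and the control library used in the call, was not given in the sources used here. Depth was not given either.

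Family peaks were selected by the authors' gene name. Positions were set beside RefSeq GRCm38.p6 with Python 3.11.15, pandas 2.3.3 and pysam 0.24.0. The authors' nearest gene was found again for 39 of the 40 peaks, the class for 40 and the distance within 2 bp for 27 (whole list 87.9%, 98.1% and 83.9%). Distances are the authors' unless stated. The background counts protein-coding genes with a curated transcript, matched by symbol or gene ID. Shares have 95% Wilson intervals and medians binomial order-statistic intervals (scipy 1.17.1). Alternatives were a distance limit, a score limit, the RefSeq nearest gene, gene bodies, neighbouring peaks merged, Sema6d or repeats left out and other motif windows. Counting and motif steps were tested on simulated data. Every member was described, the list genes with most peaks were named, and members and lists were chosen with earlier results of these data known. No protein sequence was used here, and the annotation of 1 peak is not reported here.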

Additional observations from a re-analysis of the deposited data

How the results depend on the processing

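Of 39 alternative values for the main counts, shares and medians, 31 stayed within their limits and 8 moved. Counting only peaks within 10 kb of a TSS left 6 members and 7 peaks. Counting only scores at or above the median of the list left 11 members and 20 peaks, and raised the repeat share to 55.0%, beside 55.8% of the list at such scores. Leaving out peaks on repeats left 25 peaks. The NFI core motif was in 10.0% of the central 200 bp of the peaks, beside 11.9% over the list, and the full palindrome was in 0%. The NFI share thus went from above that of the list to below it, within counting error both times. For single members, 12 of 48 alternative counts were identical and 23 lay within 1.5 times. No paired analysis was possible because the list pools the libraries. For the same reason no library could be left out, and differences between replicates, depth and the strength of the change in mutant BG could not be assessed. Shares over 40 peaks are imprecise, as their intervals show, and peaks of 1 gene or element are not independent.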

Other observations

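Other guidance families were counted in the same way, with no test between families. Netrins and their receptors had a peak at 11 of 12 genes (91.7%), with 40 peaks, beside 50.9% of protein-coding genes and 80.3% of the longest of 10 equal groups by length. Their median length was 133.4 kb, longer than that of the semaphorin and plexin family. The netrin receptors Dcc and Unc5d had 7 peaks each. Slits and their Robo receptors had peaks at 4 of 7 genes (57.1%, beside the same 50.9% and 80.3%, with a median length of 326.4 kb), with 26 peaks, 11 at Robo1 and 7 at Slit3. None of the 7 genes had one within 10 kb of a TSS, beside 22% of protein-coding genes. Ephrins and Eph receptors had peaks at 13 of 22 genes (59.1%, beside 50.9%), with 79 peaks and a median length of 27.8 kb. Of these genes, 3 of 8 ephrins had 31 peaks and 10 of 14 Eph receptors had 48.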
